A study of Ovis aries with 12 samples.

Results

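Ischemic mitral regurgitation (IMR) is a backward leak of the mitral valve caused by injury of the heart wall rather than by disease of the valve itself. The comparison described here set mitral leaflets of infarcted sheep that had developed IMR against leaflets of infarcted sheep that had not. Libraries were chosen from the labels alone, as those taken after myocardial infarction (MI) and marked YES or NO for mitral regurgitation, and they number 9 of the 12 in the series. With IMR there were 3 animals at 4 weeks (replicates 2, 3 and 4) and 2 at 8 weeks (replicates 1 and 2). Without IMR there were 2 animals at 4 weeks (replicates 1 and 5) and 2 at 8 weeks (replicates 3 and 4). All were adult Dorset sheep in which the second and the third obtuse marginal branch of the circumflex artery had been tied off to make a posterior infarct, so the animals without IMR carry the infarct too, and the series describes the leak as low-grade. The 3 pre-MI animals, none with IMR, entered no test and serve as reference values. Each library holds poly-A RNA from 1 animal's frozen anterior leaflet, and no sham-operated group is among the labels. The series' text gives a total of 13 animals although its groups add to 12, and it describes IMR as equally frequent as its absence at each time, whereas by the labels 3 of 5 animals had it at 4 weeks. The labels were used here.

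The anterior leaflet is a thin sheet of collagen, elastic fibres and proteoglycans, covered by endothelium and kept by valve interstitial cells. In IMR the infarcted wall and its papillary muscle move outward and pull on the chordae, so that the leaflets no longer close fully. Interstitial cells of stretched leaflets are known to take on a contractile, matrix-producing state. The deposited table names genes by Ensembl sheep ID only, and 0 of its 25197 IDs matched the names table used here. The matrix, interstitial, endothelial, leukocyte and heart muscle gene lists were therefore not analysed here, the leaflet could not be checked against its markers, and what the named genes encode is not stated. In such bulk libraries fewer cells of a type and less RNA per cell cannot be told apart.

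Across both times no gene passed the test between leaflets with and without IMR in edgeR or voom, while DESeq2 passed 6. With time as a block, edgeR's quasi-likelihood test called 0 of 14609 genes (0%) at an adjusted threshold of 0.05, and no adjusted p was below 0.879. Before adjustment, 672 genes (4.6%) had a p under 0.05. Of these, 451 were higher with IMR (3.09% of genes tested) and 221 lower (1.51%), and an even spread of p-values would give 730.45. The 6 genes of DESeq2, fitted in the same design, were 4 higher and 2 lower, and voom passed 0 with or without sample weights. All 6 had an unadjusted edgeR p between 0.000344 and 0.0034, and the groups did not overlap for 5 of them. DESeq2 chose them from the same counts, so this is no independent support. The p-values were not evenly spread: the lowest of 20 equal bins held fewer genes than the 844 of the next bin, and the fullest, from 0.2 to 0.25, held 905.

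**Figure D1:**
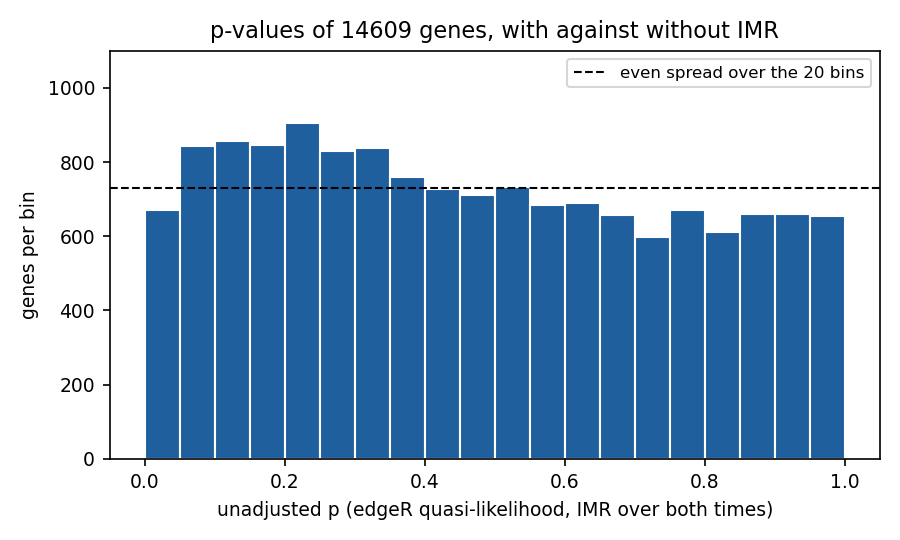
Unadjusted p-values for IMR over both times, with p on the x axis in 20 bins and the number of genes per bin on the y axis; the dashed line marks 730.45 genes per bin. The lowest bin, with 672 genes, lies below the line and the 7 bins that follow it lie above.

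Values of single genes are given as CPM, the counts of a gene divided by the library's total and put on a common scale, adjusted between libraries with TMM factors. By a rule on p alone, 2 genes higher and 2 lower with IMR are named. ENSOARG00000005866 had the smallest p of all genes. With IMR it had 7.17, 6.37 and 6.15 CPM at 4 weeks (replicates 2, 4 and 3) and 2.36 and 2.25 CPM at 8 weeks. Without IMR it had 0.672 and 0.669 CPM at 4 weeks and 0.346 and 0.925 CPM at 8 weeks, which rest on 6 to 11 counts per library. Every library with IMR lay above every infarcted library without it, and those with IMR at 4 weeks lay above those with IMR at 8 weeks. The log2 fold change was 2.61 (SE 0.485, 95% interval 1.52 to 3.7), with an edgeR unadjusted p of 0.000344 and adjusted p of 0.879. Pre-MI libraries had 0, 2.5 and 0.481 CPM, so the highest pre-MI value reached the level of the 8-week libraries with IMR. The 0 allows up to 0.21 CPM at 3 counts, a limit for counting error only.

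ENSOARG00000003877 was far more abundant and had a smaller difference. With IMR it had 85.3, 61.3 and 67.2 CPM at 4 weeks and 84.1 and 49.9 CPM at 8 weeks (mean 69.6 ± 15.1, SD, n = 5). Without IMR it had 26.4 and 29.7 CPM at 4 weeks and 35.3 and 28.6 CPM at 8 weeks (30.0 ± 3.77, SD, n = 4). The groups did not overlap, and the values with IMR were the more scattered. Its log2 fold change was 1.22 (SE 0.247, 95% interval 0.665 to 1.77, edgeR adjusted p = 0.879). Pre-MI libraries had 22.1, 56.2 and 30.1 CPM, and 1 of the 3 thus lay among the libraries with IMR.

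ENSOARG00000012909 was lower with IMR in 5 of 5 libraries. It had 15, 9.63 and 12.1 CPM at 4 weeks and 18 and 21.4 CPM at 8 weeks with IMR (15.2 ± 4.65, SD, n = 5). Without IMR it had 42.7 and 24.8 CPM at 4 weeks and 46 and 34.3 CPM at 8 weeks (36.9 ± 9.49, SD, n = 4). The log2 fold change was -1.27 (SE 0.269, 95% interval -1.87 to -0.663, edgeR adjusted p = 0.879). Here the pre-MI libraries, at 24.6, 33 and 29.1 CPM, all lay above the libraries with IMR and beside or inside the range without it, whose lowest value was 24.8 CPM.

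ENSOARG00000012457 was a rare transcript whose difference came mostly from 1 animal. Of its 67 counts in libraries without IMR, 55 were in 4-week replicate 1 (6.16 CPM), with 7, 1 and 4 counts in 4-week replicate 5 and 8-week replicates 3 and 4. The 5 libraries with IMR held 3 counts in all, 2 in 4-week replicate 4 and 1 in 8-week replicate 2. Scaled to library size, the ratio of summed counts with IMR over without was 0.0279 (exact 95% interval 0.00561 to 0.085, counting error only). The groups overlapped, since the 0.1 CPM of 4-week replicate 4 with IMR exceeded the 0.0576 CPM of 8-week replicate 3 without. The fitted difference, -4.99 on the log2 scale (SE 1.2, edgeR adjusted p = 0.879), depends on the prior count, and was -3.27 without 4-week replicate 1. Pre-MI libraries held 6, 0 and 0 counts.

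**Figure D2:**
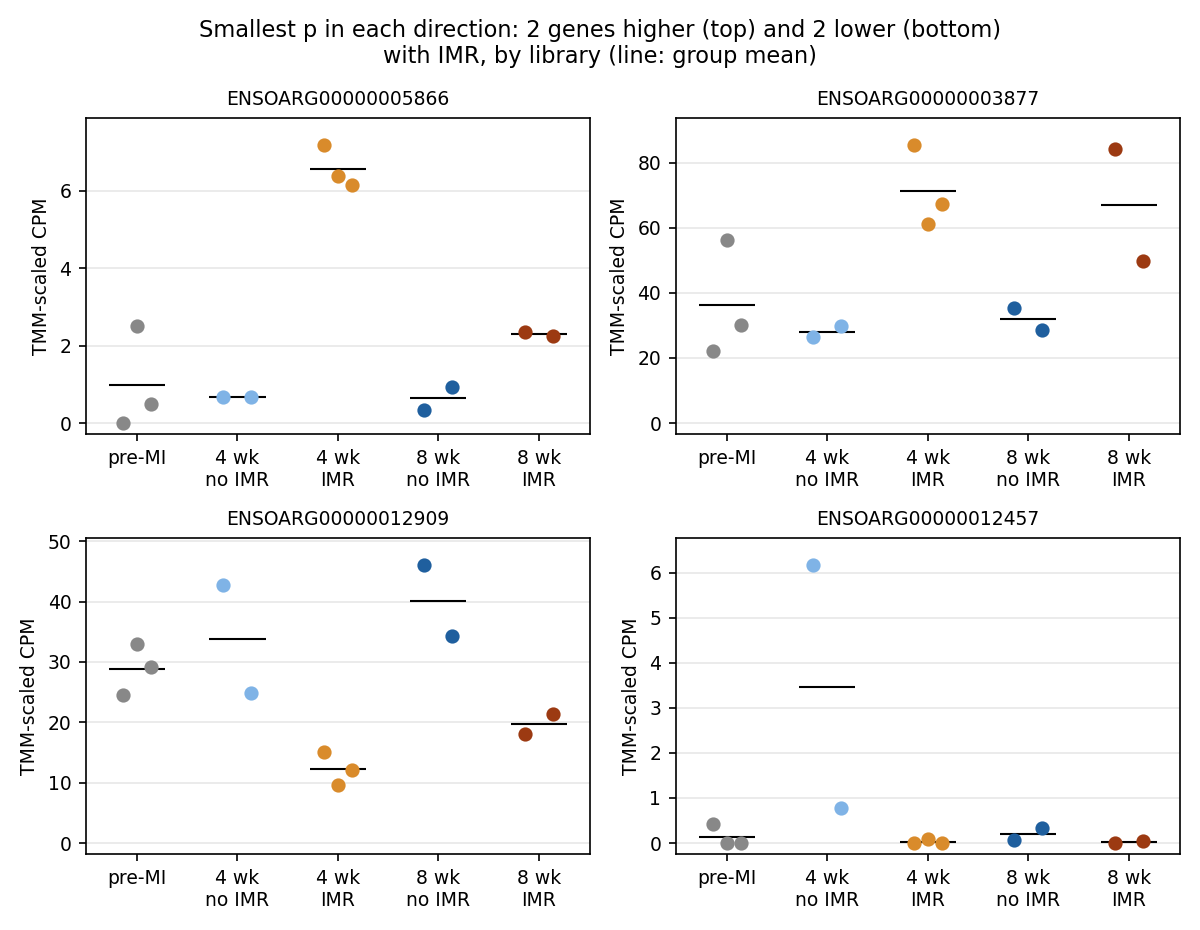
TMM-scaled CPM (y axes, linear) of the 4 named genes in each library, by group (x axes); points are animals and lines group means, and the pre-MI libraries are shown for reference. In ENSOARG00000005866, ENSOARG00000003877 and ENSOARG00000012909 the 5 libraries with IMR lie to one side of the 4 without, while ENSOARG00000012457 is set by 1 library at 6.16 CPM.

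The 4 named genes were chosen by p from these libraries, so a small p in another setting or fit is no independent support. DESeq2 passed 3 of these 4 genes, with an adjusted p of 0.00308 for ENSOARG00000005866, 0.0381 for ENSOARG00000003877 and 0.0381 for ENSOARG00000012909. It gave 0.093 for ENSOARG00000012457. Under every other setting that tested the gene, the adjusted p ran from 0.527 to 1 for ENSOARG00000005866 and from 0.596 to 1 for ENSOARG00000003877, ENSOARG00000012909 and ENSOARG00000012457. All 4 kept an unadjusted edgeR p under 0.05 in each of the 9 fits that left out 1 library.

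The animals at 4 and 8 weeks are different, which allows the IMR difference to be read at each time. Both contrasts came from the same fit, in which all post-MI libraries share an estimate of each gene's spread. The gene lists of the times are therefore not independent. At 4 weeks, 0 genes (0%) passed in edgeR, and 823 (5.63%) had an unadjusted p under 0.05. These were 437 higher (2.99%) and 386 lower (2.64%) with IMR. The balance turned to 876 higher and 1835 lower without 4-week replicate 4 (IMR), and to 194 and 322 without replicate 5 (no IMR). It was 948 higher and 1438 lower in voom with sample weights, and 296 and 359 in voom without them. At 8 weeks, 0 genes (0%) passed in edgeR and 317 (2.17%) had an unadjusted p under 0.05, 280 of them higher with IMR (1.92%) and 37 lower (0.253%). Over all genes tested the median log2 fold change at 8 weeks was -0.0289, so the median gene did not share the lean toward higher values. DESeq2 passed 20 genes at 4 weeks and 0 at 8 weeks. The lean toward higher values at 8 weeks rested on single animals: without 8-week replicate 1 with IMR it was 96 higher and 147 lower, and without 8-week replicate 3 without IMR it was 299 higher and 343 lower. When the IMR difference at 8 weeks was tested against that at 4 weeks, edgeR called 0 genes (0%), no adjusted p was below 0.973, and DESeq2 called 1. Before adjustment 396 genes (2.71%) had a p under 0.05, 246 with the higher IMR difference at 8 weeks (1.68%) and 150 with the lower (1.03%). That balance turned as well: it was 154 and 257 without 8-week replicate 1 (IMR), 292 and 356 without 4-week replicate 1 (no IMR), and 289 and 302 without 8-week replicate 3 (no IMR).

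The lists of genes with an unadjusted p under 0.05 at each time shared 27 genes with the same direction and 12 with opposite directions. The 22 higher at both times were 5.03% of the 437 and 7.86% of the 280 higher genes, and 0.151% of genes tested. Of all genes tested, 2.99% were called higher at 4 weeks and 1.92% at 8 weeks. The 5 lower at both were 1.3% of the 386 and 13.5% of the 37 lower genes, and 0.0342% of genes tested. Called lower were 2.64% of all genes tested at 4 weeks and 0.253% at 8 weeks. Of the 12, 3 were higher at 4 weeks and lower at 8 weeks (0.0205% of genes tested), and 9 the other way (0.0616%). As both lists share an estimate of each gene's spread, nothing is read from their overlap. Of the 437 genes higher at 4 weeks, 298 (68.2%) were also higher by any amount at 8 weeks, and of the 386 lower, 189 (49%) were also lower, beside 52.6% of all genes tested with the same sign at both times. At 4 weeks the libraries with and without IMR did not overlap for 3132 genes (21.4%), 1510 higher (10.3%) and 1622 lower (11.1%). At 8 weeks they did not overlap for 3725 (25.5%), 2254 higher (15.4%) and 1471 lower (10.1%). With so few libraries per group, separation is frequent without any IMR difference. The share to be had that way was not computed, so nothing is read from these counts. Taking both times, the libraries with and without IMR did not overlap for 373 genes higher at both (2.55%) and 163 lower at both (1.12%). For 90 genes they were higher at 4 weeks and lower at 8 weeks (0.616%), and for 179 the reverse (1.23%). The shares that the separate times would give by themselves were not computed, so nothing is read from these counts either.

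The named genes had the same sign at both times. For ENSOARG00000005866 the log2 fold change was 3.27 (SE 0.621) at 4 weeks and 1.87 (SE 0.614) at 8 weeks, and the difference between the times of -1.4 (95% interval -3.31 to 0.511) had an edgeR adjusted p of 0.973. For ENSOARG00000003877 it was 1.35 (SE 0.354) and 1.07 (SE 0.374). For ENSOARG00000012909 it was -1.46 (SE 0.372) and -1.03 (SE 0.414). For the rare ENSOARG00000012457 the 8-week value of -2.39 had a 95% interval from -6.46 to 1.67. Both time points entered the test that chose these genes, so their shared sign is a description and no independent support.

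**Figure D3:**
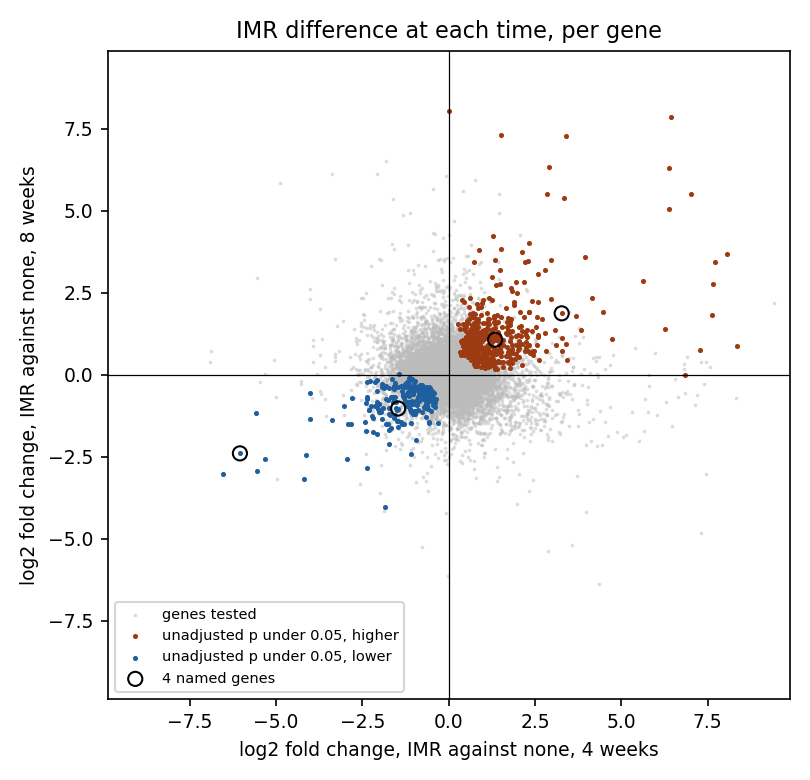
Log2 fold change with against without IMR at 4 weeks (x axis) and at 8 weeks (y axis); each point is 1 of 14609 genes, coloured where the unadjusted p over both times was under 0.05, with the 4 named genes circled. Of the grey and coloured points together, 52.6% lie in the quadrants where both signs match.

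The 672 genes with an unadjusted p under 0.05 were of ordinary abundance. Their median level was 18.7 CPM for those higher with IMR and 19.2 CPM for those lower, beside 18.2 CPM for all genes tested. They made up 5.82% of the genes under 1 CPM, 4.35% of those from 1 to 10 CPM, 4.54% of those from 10 to 100 CPM and 4.83% of those at 100 CPM and over. The median difference was 2.06-fold for the 451 higher and 1.91-fold for the 221 lower, and 60 and 17 of them exceeded 4-fold. Over all genes tested the median was 1.25-fold and 129 (0.883%) exceeded 4-fold, but choosing genes by p favours wide differences, so nothing is read from the larger folds. All infarcted libraries with IMR lay to one side of all those without for 296 genes tested (2.03%), 205 higher (1.4%) and 91 lower (0.623%). Of these, 151 higher and 56 lower were among the 672. The share of genes that would separate without an IMR difference was not computed.

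Pre-MI libraries had no part in choosing these genes, but the infarcted groups they are set against did. Choosing by p widens the gap between those groups, and the genes given for comparison were not matched for that gap. The shares and medians below are therefore a description only. For the 451 genes higher with IMR, the pre-MI mean was nearer to the infarcted leaflets without IMR in 315 (69.8%), beside 64.2% of all genes that were higher with IMR by any amount. For the 221 lower genes it was nearer to the leaflets without IMR in 160 (72.4%), beside 59% of all genes lower by any amount. The pre-MI mean lay between both infarcted groups for 344 of the 451 (76.3%) and 156 of the 221 (70.6%). Among all genes it did so for 2758 of 7391 higher by any amount (37.3%) and 2542 of 7218 lower (35.2%), whose gap between groups was not chosen to be wide. On the log2 CPM scale, the median of the 451 genes was 0.653 above pre-MI with IMR and -0.281 relative to pre-MI without it. For the 221 genes the medians were -0.574 and 0.221. All genes higher by any amount had medians of 0.269 and -0.0596, and all genes lower -0.229 and 0.0928. No test was made of these shares.

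Transcripts present in one group and absent from the other were few. Among all 25197 gene IDs, 10 had counts in all 5 libraries with IMR and 0 in all 4 without, and 0 had the reverse pattern. The highest count of any of the 10 in a library was 23, 6 of them averaged 3 counts or more in the libraries with IMR, and 2 of the 10 had no count pre-MI. Only 1 of the 10 passed the filter on low counts. Libraries with IMR were 1 more in number and deeper on average (14720000 against 12700000 counts), and the part of depth in these patterns was not tested.

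The precision of the comparison sets what it can show. The 95% interval of the log2 fold change had a median half-width of 0.884, a 1.85-fold change, and ran from 0.557 to 1.83 between the 10th and 90th percentiles of genes. The interval lay within 2-fold in either direction for 4690 genes (32.1%) and within 4-fold for 11844 (81.1%), so for the other 2765 genes these 9 libraries do not bound the IMR difference to 4-fold. This share differed with abundance: the interval was within 2-fold for 0.208% of genes under 1 CPM, 12.7% from 1 to 10 CPM, 44.5% from 10 to 100 CPM and 44.1% at 100 CPM and over.

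The main axes of variation among the 9 libraries did not separate leaflets by IMR. Total counts ran from 7768007 to 19175100. The first 2 principal components of log2 CPM held 38% and 26.7% of the variance. On the first, 8-week replicate 4 without IMR (124) and 8-week replicate 1 with IMR (86.7) stood apart from the other libraries (-55.5 to 10.9). On the second, 4-week replicates 2 and 3 with IMR scored 83.3 and 78, while the remaining 4-week library with IMR, replicate 4, scored -28.3 and 4-week replicate 5 without IMR -82.8. Each library's closest match by correlation across genes had the same IMR label in 3 of 9 cases and the same time in 7 of 9. Mean correlations differed little, from 0.883 to 0.895 over pairs that shared IMR label, time, both or neither. IMR accounted for 12% of the within-time variance, beside 14.4% on average over the 60 ways of assigning the labels within time (exact permutation p = 0.517, adjusted p = 0.62).

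**Figure D4:**
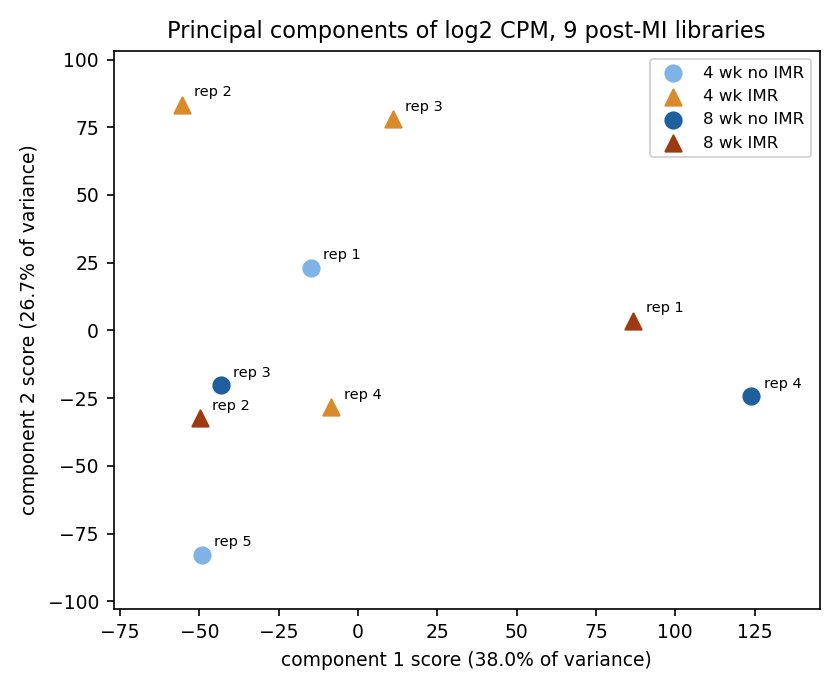
Scores of the 9 post-MI libraries on the first (x axis, 38.0% of variance) and second (y axis, 26.7%) principal components of log2 CPM; circles are libraries without IMR, triangles with IMR, labelled by replicate. Triangles and circles are interspersed, with 8-week replicates 4 and 1 at 124 and 86.7 on the first axis and 4-week replicates 2 and 3 at 83.3 and 78 on the second.

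More genes were detected with IMR, though not beyond the correction for the 6 library measures compared. Libraries with IMR had counts in 16722, 17296 and 16243 genes at 4 weeks and 17102 and 17072 at 8 weeks, and those without in 16054 and 16175 at 4 weeks and 16812 and 16324 at 8 weeks. Within each time every library with IMR was above every library without, a time-adjusted difference of 585 genes (two-sided exact permutation p = 0.0333, adjusted p = 0.2, with a smallest possible p of 0.0167). Thinned to the smallest total, the difference was 375 genes (exact permutation p = 0.15) and the groups overlapped at 4 weeks, where replicate 3 with IMR had 15803 and replicate 5 without had 16175. The 10 most abundant genes took 10.3% to 16.3% of counts with IMR and 14.2% to 25.2% without, the 25.2% being 4-week replicate 1 (time-adjusted difference -4.1 percentage points, exact permutation p = 0.117, adjusted p = 0.35). That difference was -1.62 without this library and -6.33 without 4-week replicate 5 (no IMR). Either omission leaves 1 library without IMR at 4 weeks, so only the size is given.

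Which genes reached an unadjusted p under 0.05 depended on single animals. Each fit below reused most of the libraries that chose the 672 genes, so a kept sign or p is no independent support. Without 4-week replicate 4 with IMR there were 1188 such genes, and the balance turned to 469 higher and 719 lower. There were 375 when 4-week replicate 2 (IMR) was omitted, 393 when 4-week replicate 3 (IMR) was omitted and 443 when 8-week replicate 1 (IMR) was omitted. Of the 672 genes, 140 kept an unadjusted edgeR p under 0.05 in all 9 fits of 8 libraries, 104 of them higher with IMR, and all 672 kept their sign. Omitting both libraries that stood apart on the first component, a setting chosen after the data were seen, left 504 genes, 254 higher and 250 lower, of which 289 were among the 672. In each of these fits 0 genes passed the adjusted threshold in edgeR.

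**Figure D5:**
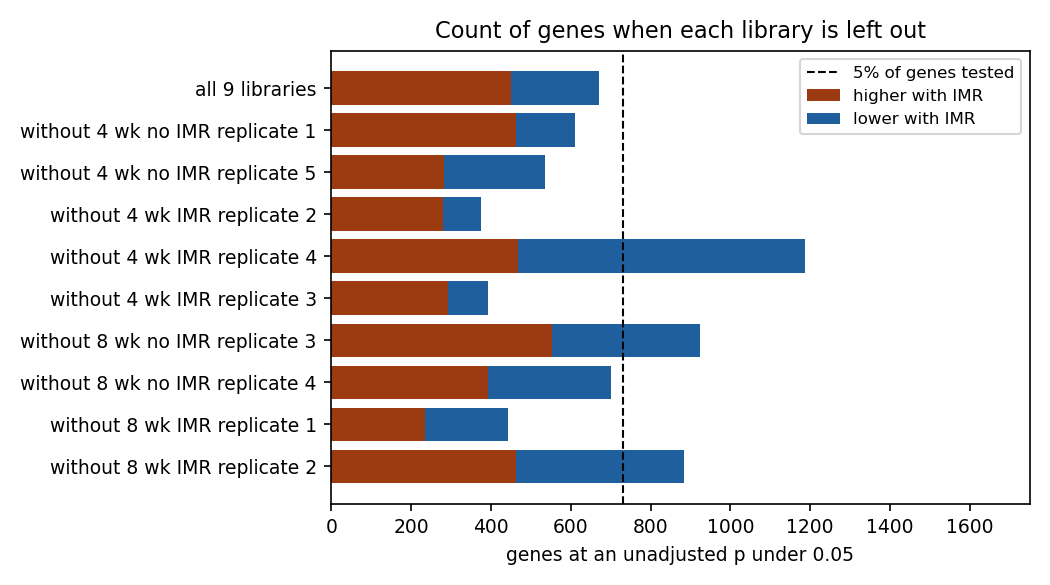
Number of genes at an unadjusted p under 0.05 for IMR over both times (x axis), split into higher and lower with IMR, with all 9 libraries and with each library left out (y axis); the dashed line is 5% of the genes tested, 730.45. The bar without 4-week replicate 4 with IMR reaches 1188 and those without 4-week replicates 2 and 3 with IMR 375 and 393.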

How the data were processed

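The authors deposited raw counts, as whole numbers for each Ensembl sheep gene ID in each library, per the file headers. Bowtie2 2.2.3, TopHat2 2.0.12 and HTSeq 0.6.1 are named, per the submitters' processing notes, without their roles. Build, annotation and strand setting are not given in the sources used here, so genes that overlap, are antisense to each other or have near-identical copies may have misassigned counts. Sequences and gene symbols were not used here.

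The 9 post-MI libraries were filtered with filterByExpr on their 4 groups (14609 genes, 99.95% of counts), scaled with TMM and fitted in edgeR 4.0.16 (R 4.3.3) with time as a block and robust dispersion (6 residual degrees of freedom, biological coefficient of variation 0.531). P-values were adjusted by Benjamini-Hochberg over all genes. Within-time contrasts and the interaction came from a fit of the 4 groups. Standard errors are the log2 fold change over the square root of F. Printed CPM use TMM factors over all 12 libraries, and log2 CPM a prior count of 2. Library measures were compared by exact permutation of IMR labels within time, two-sided. The model was also run on simulated counts, drawn independently for each gene with no time effect and no outlying library. The outcome of that run is not reported here.

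The rule took the 2 genes with the smallest p in each direction, printed by ID. The comparison and lists were chosen with earlier results of these data known. Alternatives were DESeq2 1.42.0, limma 3.58.1 voom, other scalings and filters, a surrogate variable (sva 3.50.0), other designs and leaving out each library. No pair of libraries agreed within sampling noise (smallest chi-square per degree of freedom 44.9). The labels give 1 animal per library, and 3 counts were taken as the limit that a count of 0 allows.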

Additional observations from a re-analysis of the deposited data

Results flagged for a closer look

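ENSOARG00000012457 had 6.16 CPM in 4-week replicate 1 without IMR, far from the other libraries without IMR, at 0.0576 to 0.781 CPM (gap over range 0.882). It was 1 of 18 such comparisons of named genes and library measures within the groups with and without IMR, where chance gives 0.9. In the same library the 10 most abundant genes took 25.2% of counts, and whether the gene's level moved with that share was not tested.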

How the results depend on the processing

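In all 4 comparisons 0 genes passed in every edgeR and voom setting run, and in each fit that left out 1 library. DESeq2 passed 6 genes over both times, 20 at 4 weeks and 1 in the interaction; the cause was not tested. The number of genes whose interval lay within 2-fold was 3027 to 4378 across such fits, lowest with 4-week replicate 1 (no IMR) omitted and 3055 with 8-week replicate 2 (IMR) omitted, where fewer samples widen it. With the replicate number as a block it was 1167, since the block leaves 2 residual degrees of freedom over both times. In that fit 339 genes had an unadjusted p under 0.05. The fit of the 4 groups with this block, which leaves fewer degrees of freedom, gave 287 at 4 weeks, 110 at 8 weeks and 140 in the interaction. Deviations of same-numbered libraries correlated over 0.1 in 2 of 4 pairs (mean 0.0839). So few pairs cannot show whether such libraries share more than a number.

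With minus without IMR, the time-adjusted difference on the first component was -2.09 in the main setting (exact permutation p = 0.917). It was 2.33 when only genes averaging 5 CPM or more were kept, and ran from -34.4 to 58.4 across fits without 1 library. On the second component it was 44.1 (exact permutation p = 0.267) and ran from -11.8 to 61.8 across such fits. None of these differences passed its test. Unadjusted counts at 4 weeks were 2711 without 4-week replicate 4 with IMR, 308 without replicate 2, 343 without replicate 3 and 516 without replicate 5 without IMR. At 8 weeks the count was 642 without 8-week replicate 3 without IMR. For the interaction it was 1308, 230 and 241 without 4-week replicates 4, 2 and 3 with IMR, and 648 without 4-week replicate 1 without IMR. Voom with sample quality weights gave 1168 over both times, 2386 at 4 weeks, 172 at 8 weeks and 716 in the interaction. Keeping only genes averaging 5 CPM or more, and so fewer genes, gave 194 at 8 weeks and 256 in the interaction. The median SE of the log2 fold change was 0.877 for genes under 1 CPM and 0.33 at 100 CPM and over.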
